A study of Drosophila melanogaster with 3 samples.

Results

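Slou peaks at one-direction promoters are binding peaks whose summit lies near the start of protein-coding genes that all run the same way. A summit was taken from the optimal peak list of the series. It was kept when it lay within 500 bp of at least 1 protein-coding transcription start site (TSS) of the Ensembl BDGP6 gene models and every such site was on the same strand. Of the 2743 optimal peaks, 887 (32.3%) met this rule. Another 651 summits lay within 500 bp of starts on both strands, called divergent promoters here, and 1205 lay farther from any start. The rule used positions and strands, and no measured level.

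Slouch (slou) is a homeodomain transcription factor of the NK class that sets the identity of a subset of muscle founder cells and neurons in the fly embryo. Homeodomains contact short A/T-rich sites, of which TAATTA is a common core. Fly promoters fall into broad kinds: those of constantly used genes often carry the DNA replication-related element (DRE) and start transcription over a dispersed region, while those of developmental genes more often carry a TATA box, an initiator or GAGA repeats bound by the Trithorax-like protein. Many fly genes stand alone, and many others share a short gap with a neighbour that is read the opposite way.

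The data are chromatin immunoprecipitation followed by sequencing, in 3 biological replicates that form 1 group. Whole Drosophila melanogaster embryos of mixed sex, aged 0 to 24 h, came from a transgenic line stably carrying slou with GFP fused to its C terminus, and the sample descriptions state a pull-down with an antibody to GFP. Another label field gives slou under antibody, and the labels do not settle the difference. The deposited peaks were called against a control, which is not analysed here. Comparisons are therefore made within the group, over replicates and kinds of genomic site. The mixed ages and the whole embryo mean that signal from all tissues is pooled, and the tagged protein comes from a transgene. Read depth is unknown because the peak lists used hold no read counts, and intervals on shares are 95% Wilson intervals that cover counting error over peaks only.

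Windows at 4 of the higher-scoring summits show what the sequence under these peaks looks like. They are 101 bases long, centred on the summit, taken from the Release 6 (dm6) RefSeq genome and written 5′ to 3′ on the strand of the gene. The first is at the highest-scoring of the 887 peaks, upstream of CG14100 (chr3L:19590560-19590660, minus strand), with TTAAAA in capitals. The second shows, in capitals, the homeodomain core upstream of CG18549 (chr3R:12449102-12449202, plus strand). The others show the DRE core upstream of a start of numb (chr2L:9449526-9449626, plus strand) and a GAGA repeat upstream of a start of CG31886 (chr2L:8958305-8958405, minus strand). Each is the highest-scoring peak with that motif within 50 bp of its summit and clear of annotated UTRs, with 1 chromosome arm left out of this choice.
CG14100: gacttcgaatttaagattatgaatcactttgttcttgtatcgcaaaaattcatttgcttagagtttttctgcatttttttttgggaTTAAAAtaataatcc
CG18549: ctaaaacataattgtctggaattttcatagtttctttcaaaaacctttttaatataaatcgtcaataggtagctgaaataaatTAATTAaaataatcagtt
numb: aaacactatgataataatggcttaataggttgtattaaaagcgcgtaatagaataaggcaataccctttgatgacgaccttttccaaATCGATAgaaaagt
CG31886: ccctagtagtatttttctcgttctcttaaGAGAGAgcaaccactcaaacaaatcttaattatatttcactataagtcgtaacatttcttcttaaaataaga
Of these windows, A and T made up 73.3% at CG14100, 78.2% at CG18549, 67.3% at numb and 70.3% at CG31886.

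One-direction promoters made up a smaller share of the optimal start-site peaks than of start-site sequence. Of the 1538 optimal summits within 500 bp of a start, 57.7% (55.2 to 60.1) were one-direction. Among background peaks, which are the 26843 peaks of the pooled list that overlap no optimal peak, the share was 82.6% (81.5 to 83.6). Of all genomic positions within 500 bp of a protein-coding start, 89.1% had starts on 1 strand only. The top 2743 peaks of replicates 1, 2 and 3 gave 59.9%, 57.2% and 58.4%, a mean of 58.5% ± 1.35 (SD, n = 3), so all 3 replicates lay below both references.

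The same contrast was seen gene by gene. A gene was counted as one-direction when no opposite-strand coding start lay within 1000 bp of any of its own starts, which held for 8827 genes, and the other 5141 were divergent. In replicates 1, 2 and 3 a top peak lay within 500 bp of a start of 7.62%, 7.61% and 7.66% of one-direction genes. The shares of divergent genes were 26.5%, 28.8% and 27.1%. The groups did not overlap, and the difference was -19.8 percentage points ± 1.18 (SD, n = 3), with an exact sign-flip permutation p of 0.25, two-sided. That is the smallest p that 3 replicates can give, so no comparison between replicates here can pass 0.05. A single summit in a shared gap counts for the genes on both sides, which raises the divergent share.

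**Figure D1:**
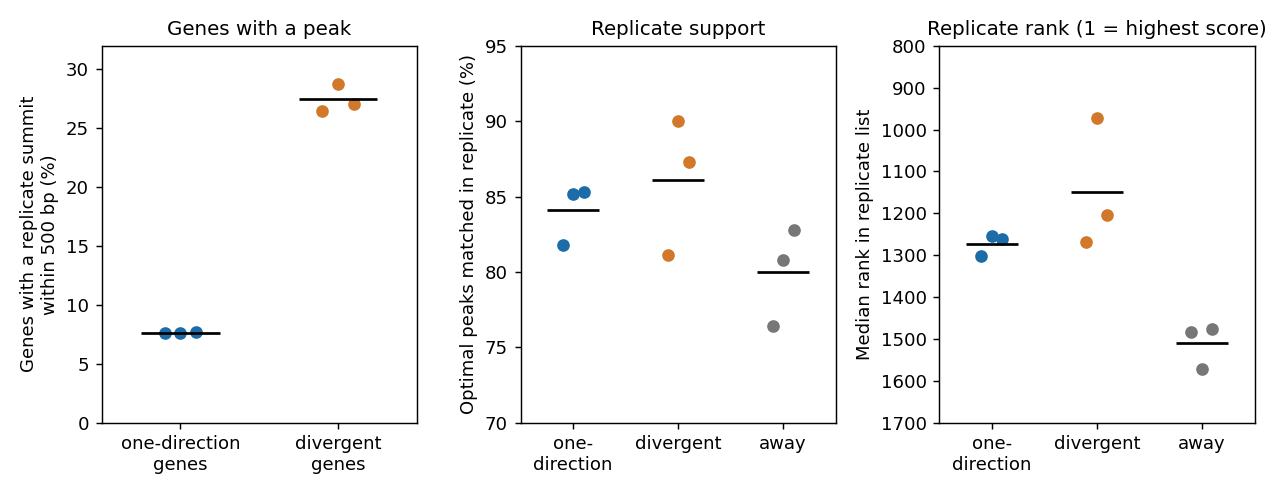
Replicate values for one-direction promoters, divergent promoters and peaks away from starts. Points are replicates 1, 2 and 3 from left to right and bars are means; the panels show the percent of genes with a top-2743 replicate summit within 500 bp, the percent of optimal peaks matched in each replicate (axis from 70%), and the median rank of the optimal peaks in each replicate list, with higher-scoring ranks at the top. One-direction genes sit at 7.61% to 7.66% and divergent genes at 26.5% to 28.8%.

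The summits lay mostly on the upstream side of the nearest start. Of the 887, 800 were upstream of it and 87 downstream, an upstream share of 90.2% (88.1 to 92.0). Inside the gene they were assigned to lay 318, more than the 87 downstream ones. Summits counted as upstream thus include some inside the gene, near a later start. Background summits at one-direction starts were upstream in 62.4% (61.0 to 63.9). The top lists of replicates 1, 2 and 3 gave 84.5%, 89.6% and 87.4%, a mean of 87.2% ± 2.57 (SD, n = 3). Every replicate was above the background share, by more than the spread between replicates.

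The median offset was -154 bp, with the middle 50% of peaks between -261 and -72 bp. Replicates 1, 2 and 3 had medians of -150, -153 and -141 bp, a mean of -148 ± 6.24 (SD, n = 3), against -63 bp for background peaks at the same kind of start. The stretch from -300 to -50 bp held 62.5% of the 887 summits and 34.9% of background summits. Divergent summits lay closer to their nearest start, at a median of -88 bp, but there the nearest start is the closer of starts on either side.

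**Figure D2:**
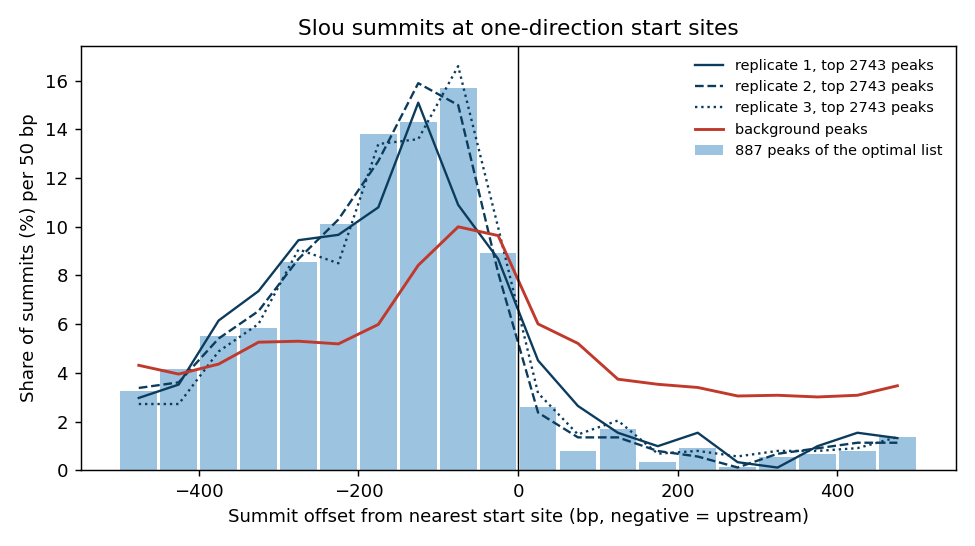
Summit offset from the nearest start (x axis, bp, negative upstream) against the share of summits per 50 bp (y axis, %). Bars are the 887 optimal peaks, dark lines the one-direction summits among the top 2743 peaks of each replicate, and the red line background peaks; the bars and replicate lines fall sharply at the start site while the background line keeps a downstream tail.

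Within the upstream side, scores showed no steady trend with distance. The deposited score is the authors' own value on a scale not stated in the sources used here, and serves only to rank peaks. Peaks between -300 and -201 bp (166 of them) had a median score of 158, and 75.3% (68.2 to 81.2) were matched in all 3 replicates. Peaks between -100 and -1 bp (218) had a median score of 130.5 and 56.9% (50.2 to 63.3) in all 3. The median score was 141 between -200 and -101 bp and 136 between -500 and -301 bp. Over all 887 peaks, downstream ones included, Spearman's rho between absolute offset and score was 0.0604. It is given as a description, since peaks of a list share libraries.

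Replicate summits placed the peaks closely. For 870 of the 887, an overlapping peak was found in all 3 full replicate lists. The SD of the 3 summit offsets had a median of 27.2 bp, and in 49.0% of the peaks the 3 summits lay within 50 bp of each other. They spread over more than 200 bp in 4.37%. Of 785 such peaks with an upstream optimal summit, 752 were upstream in all 3 replicates. Of 85 with a downstream summit, 69 were downstream in all 3.

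The 87 downstream peaks had a median offset of 147 bp. Of these, 49 summits fell in a 5′ UTR, 37 in an intron and 1 in coding sequence. Their median score was 135, against 141 upstream, and 63.2% (52.7 to 72.6) were matched in all 3 replicates. The strongest were at GstE13, a glutathione S-transferase gene (64 bp, score 709), and PNPase, which encodes polynucleotide phosphorylase (81 bp, score 599). GstE13 had offsets of 49, 102 and 47 bp in replicates 1, 2 and 3, and PNPase 103, 64 and 67 bp, downstream in each.

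The X chromosome had a lower upstream share than the large autosome arms. On X, 132 of 162 summits were upstream (81.5%, 74.8 to 86.7), against 92.1% of the 718 on 2L, 2R, 3L and 3R. Replicates 1, 2 and 3 gave 78.7%, 83.5% and 82.3% on X and 85.7%, 90.9% and 88.4% on the autosome arms. The difference was -6.81 percentage points ± 0.589 (SD, n = 3), lower on X in 3 of 3 replicates, with an exact permutation p of 0.25, two-sided. This comparison was chosen after the values by arm were seen. Chromosome 4 held 7 of the 887 peaks, all upstream.

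Scores of the 887 peaks ran from 92.0 to 1515, with a median of 141, and their median rank in the optimal list was 1289. The optimal list itself is the 9.14% of pooled-list peaks with the highest scores. Of the pooled-list summits at one-direction starts, 16.5% were in it. Divergent peaks had a median score of 147 and peaks away from starts 128. The top 686 ranks of the list held 28.5% of one-direction, 31.0% of divergent and 19.2% of other peaks.

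Replicate support was partly built in, because the optimal peaks come from the same replicates pooled. Support was the share of peaks overlapped by at least 1 bp by one of the top 2743 peaks of a replicate. It was 81.8%, 85.2% and 85.3% in replicates 1, 2 and 3, a mean of 84.1% ± 1.99 (SD, n = 3). In all 3 replicates 563 of the 887 were matched (63.5%, 60.3 to 66.6), against a background of 60.7% of all optimal peaks, 67.3% of divergent peaks and 55.0% of peaks away from starts. A further 229 were matched in exactly 2 replicates, 92 in 1 and 3 in none. Ordered by score in sets of 221 or 222 peaks, support in all 3 was 99.1% in the highest set and 93.7%, 51.1% and 9.91% in the next. Peaks of the last set were thus rarely among the top peaks of every replicate.

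The median ranks of the 887 in the replicate lists were 1301, 1254 and 1262. They were lower-scoring than divergent peaks by 33, 282 and 58.5 places, a mean of 124 ± 137 (SD, n = 3, exact permutation p of 0.25, two-sided). The mean difference was smaller than its spread over replicates. Without replicate 2 it was 45.8 places. Against peaks away from starts they ranked higher in 3 of 3 replicates. The differences were -182, -318 and -214 places, a mean of -238 ± 70.7 (SD, n = 3, exact permutation p of 0.25, two-sided).

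The upstream share of one-direction summits exceeded that of divergent summits by 0.926, 3.35 and 3.00 percentage points in replicates 1, 2 and 3, a mean of 2.42 ± 1.31 (SD, n = 3, exact permutation p of 0.25, two-sided). The sign of this difference depended on the settings: it was -4.02 with starts within 1000 bp and -0.693 with replicate lists of 5486 peaks. A summit between opposite starts lies upstream of at least 1 of them by construction.

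The 20 highest-scoring peaks had scores from 518 to 1515, and 18 were upstream. The lowest rank of any of them in a replicate was 79, and 6 were in the top 20 of the whole optimal list. The CG14100 peak (chr3L:19590441-19590810, score 1515) lay at -86 bp and ranked 3, 1 and 1 in replicates 1, 2 and 3, with replicate offsets of -84, -92 and -83 bp. Next was mRpL41, a mitochondrial ribosomal protein gene, at -146 bp with a score of 1330 and ranks of 4, 3 and 3. These ranks and offsets hardly moved between replicates.

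Further down stood px, the wing vein gene plexus (-196 bp, score 1105, ranks 6, 7 and 5), and Ugalt, which encodes a UDP-galactose transporter (-68 bp, score 1088, ranks 10, 5 and 6). The Polycomb group gene ph-p had its summit at -472 bp (score 998, ranks 12, 8 and 7), near the edge of the window. SLC5A11, a gene of the sodium-coupled solute transporter family, followed at -175 bp (score 850.0, ranks 8, 21 and 14). Each of these ranks was within the top 21 of its replicate.

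Transcription factor genes among the 20 were Atf3, of the bZIP class (-190 bp, score 644, ranks 49, 28 and 27), and Sox14, of the HMG box class (-248 bp, score 540.0, ranks 59, 46 and 54). The others were CG31145, CG1888, CG18549, cu, gish (a casein kinase I gene), Fkbp14 (a peptidyl-prolyl isomerase gene), larp (a La-related RNA-binding protein gene), MFS10 (a major facilitator transporter gene), amon (a proprotein convertase gene) and Tina-1. Their scores ran from 518 to 699, and their summits were all upstream.

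Most genes had a single peak of this kind. The 887 peaks had 826 different nearest genes, of which 773 had 1, 48 had 2, 2 had 3 and 3 had 4. The genes with 4 were Ptpmeg2, a protein tyrosine phosphatase gene, Rtnl1, which encodes the endoplasmic reticulum protein reticulon, and dnc, the cAMP phosphodiesterase gene dunce. At dnc the peaks lay near different starts, at -275, -322, -316 and -354 bp, with scores of 413, 210.5, 131 and 106. Their ranks fell in that order in replicates 2 and 3, while in replicate 1 the last 2 were at 1993 and 1947.

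At Rtnl1 the 4 summits lay at -259, -254, -157 and -306 bp with scores of 467, 312, 128 and 110.2. The first was at ranks 109, 66 and 93 and the second at 275, 224 and 252, whereas the last was at 6016, 1364 and 3277. At Ptpmeg2 3 peaks lay at -198, -186 and -219 bp with scores of 237, 236 and 158. Another lay downstream at 123 bp, with a score of 116 and ranks of 19683, 2879 and 849. The lower peaks of these genes were thus uneven between replicates.

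The genes with 3 peaks were larp and brwl. At brwl the peaks at -217 and -13 bp overlap and matched the same replicate peaks, so they are not separate there. Of the 887 peaks, 52 (5.86%) overlapped another optimal peak and 54 (6.09%) shared a replicate peak with one.

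Some high-scoring peaks were uneven between replicates. Among the 500 highest-scoring of the 887, and of those ranked in all 3 full lists, the widest spread of ranks was at NHP2, a gene for a small nucleolar RNA-protein subunit, at 1998, 22440 and 1090 in replicates 1, 2 and 3. Next were CG5805 (9737, 1259 and 531) and Dph4 (550, 8755 and 1092). Replicate 2 stood apart at NHP2 and Dph4, and replicate 1 at CG5805. Ranks could not be compared at 4 others of the 500, scny, Vinc, CAP and Dci, which had no overlapping peak in the full list of 1 replicate: replicate 2 for scny and Vinc, replicate 3 for CAP and replicate 1 for Dci. These 4 were named after their values were seen.

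Peaks at the limits of the rule looked like their neighbours. Just inside were wech at -500 bp (score 157), a second peak of cu at 500 bp (score 94.9) and CG42808 at -498 bp (score 152). Just outside were CG15172 at -501 bp (score 110.2), Fatp3 at -502 bp (score 96.2) and Msp300 at -502 bp (score 145). For the opposite strand, the nearest starts outside the limit were 502 bp from the CG30349 summit, 505 bp from that of CG13605 and 506 bp from that of CG34310. Over the 887 summits the nearest opposite start was at a median of 4255 bp and at most 100717 bp, and in 113 (12.7%) it lay within 1000 bp. A noncoding transcript started on the opposite strand within 500 bp of 41 (4.62%).

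The surroundings differed from those of divergent peaks mainly in the shares of intergenic and intronic summits. The classes are set by where starts lie, so these shares are not independent of the rule. Summits were intergenic in 55.2% (52.0 to 58.5) of one-direction and 72.0% (68.5 to 75.4) of divergent peaks, and intronic in 31.1% (28.2 to 34.2) and 10.3% (8.19 to 12.9). A 5′ UTR held 9.02% and 16.9%, a 3′ UTR 2.25% and 0%, and coding sequence 0.338% and 0.154%. Of the 887 summits, 318 lay inside the gene they were assigned to, 43 inside another gene on the same strand and 48 inside one on the opposite strand. In no other gene lay 796 of them. Such counts are not given for divergent peaks.

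Cytosolic ribosomal protein genes had the highest share of the 20 gene lists. Of all protein-coding genes, 6.10% were near a one-direction peak, and of one-direction genes 7.61% were. For ribosomal protein genes the counts were 35 of 88 and, among one-direction genes, 23 of 35 (65.7%, 49.2 to 79.2). The highest-scoring were RpL23A (-88 bp, score 405, ranks 113, 129 and 141), RpS5a (-80 bp, score 247, ranks 417, 388 and 515) and RpL22 (-99 bp, score 243, ranks 262, 634 and 598). None of these ranked below 634 in any replicate.

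Ribosomal summits sat nearer to the start than the others. The 35 peaks with a cytosolic ribosomal protein gene nearest had a median offset of -49.0 bp, against -159 bp for the other 852. Within 100 bp of the start lay 97.1% against 25.1%. These are peaks, not the 35 genes counted above: RpL27A had peaks at 9 and -238 bp. In replicates 1, 2 and 3 the ribosomal medians were -20.0, -64.0 and -44.0 bp and those of the others -164, -160 and -160 bp, with no overlap. Median scores were close, at 151 and 140.3, as was support in all 3 replicates, at 65.7% and 63.4%.

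**Figure D3:**
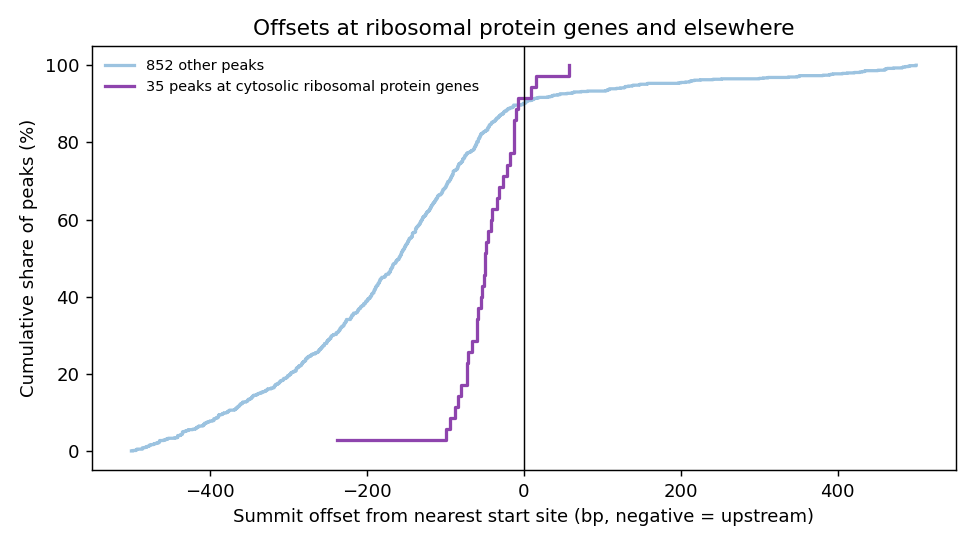
Cumulative share of peaks (y axis, %) by summit offset from the nearest start (x axis, bp, negative upstream) for the 35 peaks at cytosolic ribosomal protein genes and the 852 others. The ribosomal curve rises within about 100 bp of the start, with a median of -49.0 bp, and the other curve rises over the whole upstream window, with a median of -159 bp.

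Other lists of constantly used genes were near the background of 6.10% for peaks of this kind. Many of their genes are not one-direction genes: of the 73 mitochondrial ribosomal protein genes, 15 are. Divergent peaks, not counted here, lay at 22 of those 73, at 12 of 47 Mediator and basal factor genes and at 4 of 43 cell cycle regulators. Among all 13968 genes they lay at 1287, so the counts below do not describe all Slou peaks. Mitochondrial ribosomal proteins had 3 genes with a peak of 73, all upstream: mRpL41, mRpL4 (-95 bp, score 153) and mRpL10 (-37 bp, score 112). Oxidative phosphorylation subunits had 5 of 86, led by RFeSP, which encodes the Rieske iron-sulphur protein (-149 bp, score 116), ND-B17 and ATPsynC. Proteasome subunits had 1 of 48 (Rpn11, -347 bp), vacuolar ATPase subunits 1 of 29 (Vha16-1, -112 bp) and splicing factors 1 of 32 (Prp39, -98 bp). Translation initiation factors had 4 of 44, among them eIF6 (-97 bp, score 517, ranks 107, 55 and 48), eIF3c and eIF5B. Mediator and basal transcription factors had 2 of 47 (MED4 and Taf4), cell cycle regulators 3 of 43 (CycE, fzr and CycB) and aminoacyl-tRNA synthetases 0 of 32 (upper Wilson limit 10.7%).

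Lists of genes used in differentiated tissues had no peak of this kind. None of 230 chemoreceptor and odorant-binding protein genes had one (upper Wilson limit 1.64%), nor any of 117 cuticle protein genes (3.18%) or 32 dpr and DIP surface protein genes (10.7%). Of these genes, 191, 104 and 28 were one-direction genes, for which 7.61% is the background. The first 2 upper limits lie below the 6.10% of all genes, and the limit for dpr and DIP genes does not.

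Muscle and neural lists, which are closest to the known roles of slou, had few members each. Of 23 muscle identity factors, 3 had a peak: org-1, a T-box gene (-351 bp, score 203, ranks 637, 467 and 931), the paired-class gene Poxm (-480 bp, score 153, ranks 1435, 1180 and 818), and tin, the NK-class heart gene (-239 bp, score 117, ranks 1124, 2266 and 3349). Of 12 NK-type genes there were 2, tin and NK7.1 (-438 bp, score 267, ranks 333, 386 and 282). Sarcomere and attachment genes had 3 of 29: Msp300, a nesprin gene (-361 bp, score 440.0, ranks 115, 98 and 74), sls, the titin-like sallimus, and the integrin gene if (305 bp). Myoblast fusion genes had 1 of 16 (WASp, -103 bp). The intervals of all these lists included the background share.

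Of 26 neural transcription factors, 2 had a peak: elav, a neuronal RNA-binding protein gene grouped with them here (-252 bp, score 448, ranks 103, 112 and 73), and so (-441 bp, score 93.9). Among promoter and insulator proteins, 3 of 17 did: Trl, which encodes the GAGA factor (148 bp, score 194, ranks 1211, 418 and 1360), BEAF-32 (-61 bp, score 173) and the kinase gene JIL-1 (-32 bp, score 131). Heat shock and chaperone genes had 3 of 35: Hsp27 (-138 bp, score 458, ranks 80, 109 and 70), Hsp83 and Hsp26. The elav and Hsp27 peaks ranked within the top 112 of each replicate, while Trl did not rank above 418 in any. Of all genes, 6.10% had a peak of this kind. The neural share of 7.69% (2.14 to 24.1) and the heat shock share of 8.57% (2.96 to 22.4) had intervals that included it. For promoter and insulator proteins the share was 17.6% (6.19 to 41.0), with the lower limit barely above it.

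**Figure D4:**
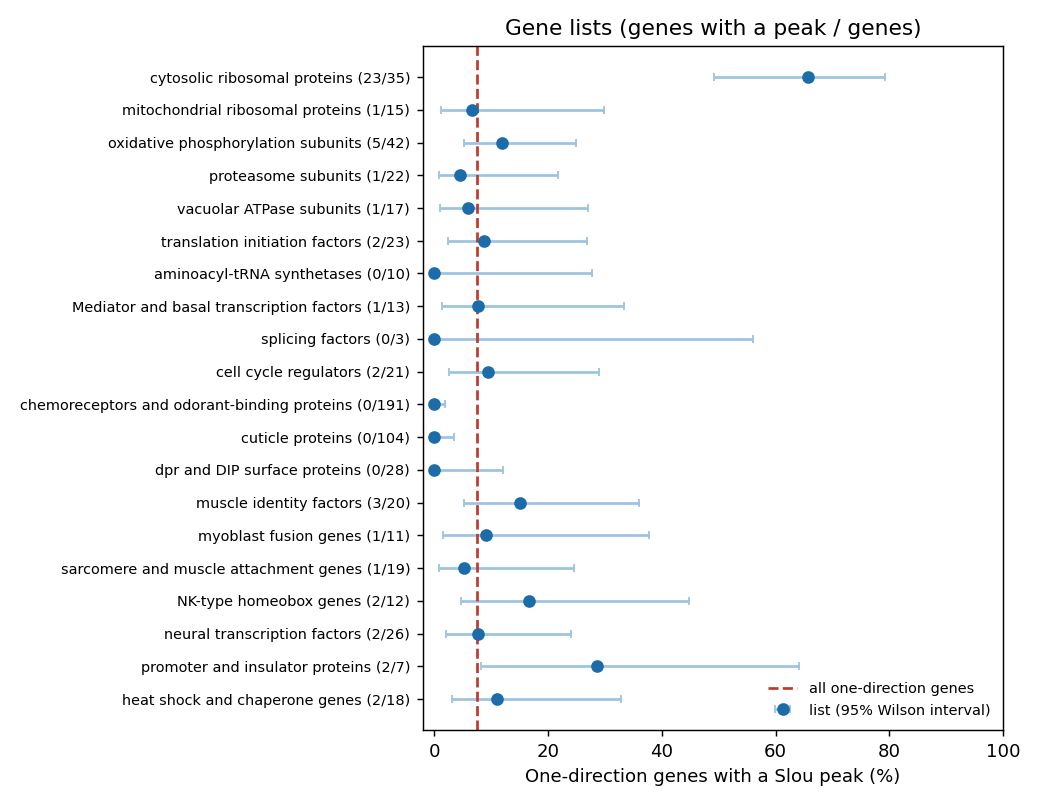
Percent of one-direction genes of each list with a Slou peak (x axis), with 95% Wilson intervals and the counts beside each list name. The dashed line is the 7.61% of all one-direction genes; the ribosomal list lies at 65.7%, and the chemoreceptor and cuticle lists lie at 0%.

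The DNA at the summits was rich in A and T. Within 50 bp of the summit, A and T made up 65.3% ± 9.28 (SD over 887 windows), against 60.2% ± 9.77 at background one-direction summits and 67.8% ± 8.99 at divergent ones. In windows 300 bp farther towards or into the gene the share was 52.9%, and 300 bp farther upstream 61.7%. The highest mean, 66.6%, was 50 bp upstream of the summit. The A/T share was 67.5% in the 222 peaks with the highest scores and 64.1% in the 222 with the lowest. Background one-direction summits lay nearer the start, at a median of -63 bp against -154 bp for the 887. They were not matched for offset, and its part in the A/T difference was not tested.

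Motifs were searched on both strands within 50 bp of each summit. A match is a description of the letters and does not show binding. In every motif comparison below, background summits were not matched for offset from the start, and the part of offset was not tested. TAATTA was present at 10.0% (8.23 to 12.2) of the 887, 12.3% of divergent, 10.6% of other optimal and 7.21% (6.48 to 8.01) of background one-direction summits. In the same sets by score, from the highest, its share was 13.1%, 12.6%, 8.60% and 5.86%. TTAAAA was at 32.9% (29.9 to 36.1), against 21.2% of background summits. These motifs consist of A and T only, so their share moves with the A/T content, and their part in the difference was not tested.

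The DRE core ATCGATA was at 7.89% (6.29 to 9.85) of one-direction, 10.1% of divergent and 5.92% (5.26 to 6.66) of background one-direction summits, and at 0.996% (0.571 to 1.73) of optimal summits away from starts. Matches lay at a median of -48.5 bp from the start. Its share by score set, from the highest, was 5.41%, 4.50%, 12.2% and 9.46%, so it was more frequent in the lower-scoring sets. It was at 34.3% of the 35 ribosomal summits and 6.81% of the other 852. At the ribosomal summits TAATTA was absent, against 10.4% elsewhere, TTAAAA was at 5.71% against 34.0%, and the A/T share was 56.1% ± 8.96 against 65.7% ± 9.09. The ribosomal shares rest on only 35 windows and are given without intervals. Those summits also lay nearer the start, at a median of -49.0 bp against -159 bp, and the part of offset was not tested. The BEAF-32 core CGATA, which is contained in ATCGATA, was at 21.4% of the 887 and 18.4% of background summits.

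The other motifs lay on both sides of the background. TATAAA, the TATA box core, was at 20.2% (17.7 to 22.9) of the 887 summits and 14.9% (13.9 to 16.0) of background one-direction summits, and runs of AAAAAA at 25.6% and 21.2%. Both consist of A and T only, and the part of A/T content in these differences was not tested. The TATAAA matches lay at a median of -192 bp from the start, 119 on the strand of the gene and 105 on the other. The initiator core TCAGT was at 17.8% and 17.4%, and AAGTG, a core bound by NK-2 type homeodomains, at 22.7% and 24.3%. Repeats of CACACA were at 4.74% (3.52 to 6.34), below the 8.47% (7.68 to 9.33) of background summits. The E-box CAGCTG was at 3.83% and 5.30%, the Motif 1 core GTCACAC at 1.47% and 2.13%, and CAGGTA, a core bound by the early activator Zelda, at 1.35% and 2.27%.

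**Figure D5:**
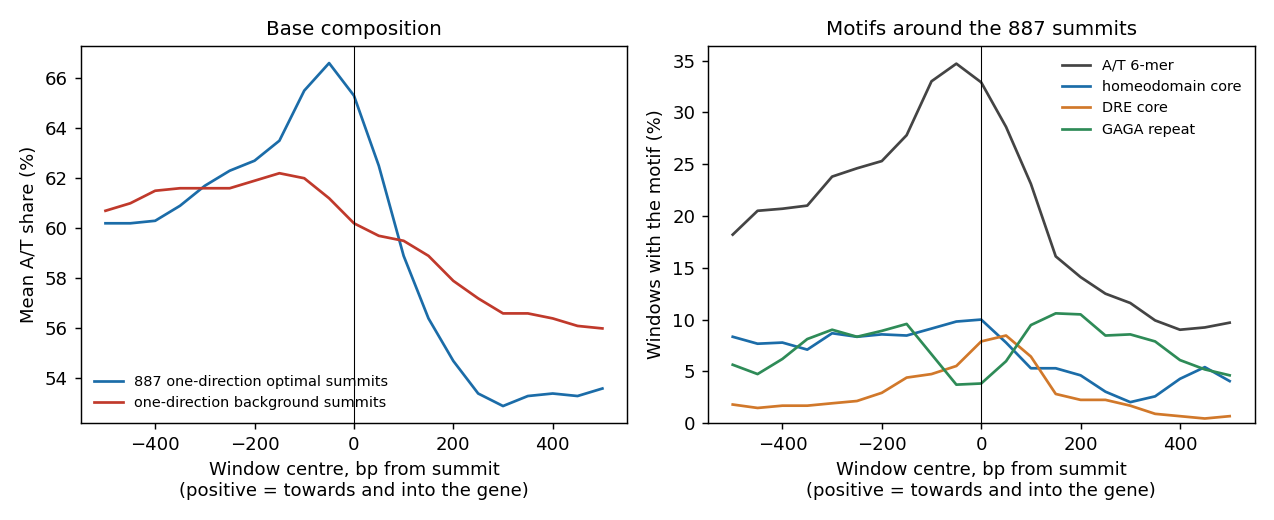
Mean A/T share (left) and percent of windows with a motif (right) in 101 bp windows at each distance from the summit (x axis, bp, positive towards and into the gene). The A/T share of the 887 summits peaks at 66.6% and falls to 52.9% at 300 bp, while background summits vary less. Motif lines are for the 887 summits only: the GAGA repeat dips at the summit, and the DRE core is highest, at 8.46%, 50 bp towards the gene.

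GAGA repeats showed the opposite profile. GAGAGA was at 3.83% (2.76 to 5.31) of summit windows, but at 9.58% of windows 150 bp upstream of the summit and 10.6% of windows 150 bp towards the gene. CACACA was at 4.74% of summit windows, 10.9% of windows 150 bp upstream and 11.5% of windows 150 bp towards the gene. The GAGAGA share at background one-direction summits was close to that at the 887, at 4.25% (3.69 to 4.89). Motif profiles around background summits were not made, so neither dip is shown to be particular to the 887. Around the starts themselves, from 250 bp upstream to 50 bp downstream, GAGAGA was at 24.3% (21.6 to 27.3) of 864 starts with a one-direction peak. It was at 14.5% of all 19276 starts, those of divergent promoters included. In the same windows TAATTA was at 16.8% and 18.8%, the DRE core at 17.7% and 15.9%, TATAAA at 40.6% and 42.2%, and the A/T share was 59.6% and 59.9%. Of the 13 motifs, the GAGA repeat thus had the widest gap between starts with a one-direction peak and all starts, with TTAAAA next at 54.6% and 49.6%. One-direction starts without a peak were not counted apart. The gap can therefore not be assigned to having a peak rather than to the kind of promoter.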

How the data were processed

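Per the deposited README files, the authors called peaks per replicate and on pooled replicates, each with a control alignment. No source used here names the aligner or the caller. The score of each peak is the authors' deposited value and was used only to rank or describe peaks within a list. The 2743 dm6 optimal peaks are the highest-scoring of the 30000 in the pooled list. No read counts were used, so depth is unknown. The dm3 lists were not used.

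Starts came from Ensembl release 115 (BDGP 6.54) and sequence from the RefSeq Release 6 genome. Coordinates are 1-based. Replicate lists were cut to their top 2743 peaks. Replicates were compared by an exact sign-flip permutation test. Python 3.11.15, pandas 2.3.3, numpy 2.4.6 and scipy 1.17.1 were used, and the matching was tested on simulated data. The p-values reflect only the spread between these samples.

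The peaks and gene lists were chosen with earlier results of these data known. Genes named are the 20 highest-scoring, up to 3 per list, those with 3 or more peaks, 3 on each side of the distance limits, the 3 with the widest rank spread among the 500 highest-scoring, and the highest-scoring per motif. Sequence on arm 2R was searched for motifs but not considered for printing.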

Additional observations from a re-analysis of the deposited data

How the results depend on the processing

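The alternatives changed 1 choice at a time. The number of one-direction peaks was 467 among the higher-scoring 1371 and 563 among those matched in all 3 replicates, both smaller by construction. Their share of start-site summits was 67.1% with starts within 250 bp, 56.2% within 1000 bp, 53.5% with 1 start per gene, 55.5% for the higher-scoring 1371 peaks and 56.2% for those matched in all 3. It was 56.0% to 57.2% for the optimal peaks matched in each pair of replicates. Those peaks still come from all replicates pooled. The upstream share was 82.8% within 1000 bp and 86.9% with 1 start per gene. The median offset was -106 bp within 250 bp, -167 within 1000 bp, -131 with 1 start per gene, -169 for the higher-scoring peaks, -168 for those matched in all 3, and -164 to -159.5 for those matched in each pair of replicates. Requiring 50% reciprocal overlap gave a mean support of 76.1%, and summits no more than 100 bp apart gave 80.2%. Replicate lists of 1371 peaks gave 53.1%, and those of 5486 gave 96.5%. The upstream share in replicate lists was 90.8% with lists of 1371, 82.4% with 5486 and 79.7% within 1000 bp. The A/T share at summits was 64.5% within 100 bp, 66.8% for the higher-scoring peaks and 66.1% for those matched in all 3. One difference changed sign, that in upstream share against divergent promoters, at -0.693 with lists of 5486 and -4.02 within 1000 bp; the cause was not tested. The differences in genes with a peak and in median rank kept their direction, and the gap in genes with a peak ran from -26.5 to -12.3 percentage points. No paired analysis of sample groups was possible because there is 1 group. The comparisons of X with the autosome arms and of ribosomal with other offsets were run under no alternative. With 3 replicates and unknown depth, no p below 0.25 could be reached, and peaks near the score limit were matched in few replicates.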
